A study of Rattus norvegicus with 17 samples.

Results

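Adipose tissue of Goto-Kakizaki (GK) rats was compared to that of Brown-Norway (BN) rats. The members are all arrays whose tissue label is adipose tissue, 9 of the 17 arrays in the series, of which 4 are from GK rats and 5 from BN rats, with 1 array for each rat. The GK rat is an inbred, relatively lean strain with spontaneous type 2 diabetes, and the BN rat is a genetically distant inbred strain with normal blood glucose. All animals were males of 7 months on standard chow, none was treated, and the adipose depot is not given in the sources used here. Total RNA of snap-frozen tissue was labelled and hybridised to Illumina RatRef-12 BeadChips, and the deposited table holds 22226 probes. The study's text and growth notes give 4 rats per strain, and the numbers here follow the arrays. Strain and diabetes cannot be told apart in these groups, since every diabetic rat is a GK rat.

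White adipose tissue stores fatty acids as triglyceride when insulin is high and releases them by lipolysis when insulin is low. Its adipocytes take up glucose through the insulin-regulated transporter GLUT4, and they secrete hormones such as leptin and adiponectin. The tissue also holds preadipocytes, endothelium, macrophages and lymphocytes, and its immune cells and extracellular matrix are known to change in obesity and in type 2 diabetes. RNA of whole tissue was measured, so fewer cells of a type and less RNA per cell cannot be told apart.

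The values are fluorescence intensities, with the mean of the negative control probes of each array subtracted, transformed by vsn (a variance stabilizing normalization) fitted to the 9 adipose arrays, and they are given on its log2 scale. For dim probes this scale is compressed, so a fold change understates the difference there. A probe was called detected where its detection score was above 0.99, which held for 7315 to 8237 probes per array. The mean number of detected probes was 7842 ± 385 in GK and 7837 ± 302 in BN rats (SD, n = 4 and 5, two-sided exact permutation p = 0.992). The housekeeping control probes had a mean intensity of 11310 ± 1877 in GK and 15077 ± 2224 in BN rats (exact permutation p = 0.0476, where the smallest possible p is 0.0159), a difference that the normalization does not use. Array replicates are given below as GK1 to GK4 and BN1 to BN5, and values are listed in that order.

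The label of the tissue held on every array. All 13 measured adipocyte markers were detected on every array of at least 1 strain, and adiponectin (Adipoq) had values of 12.38, 12.48, 12.79 and 12.47 in GK rats, against 12.63, 12.73, 12.72, 12.84 and 13.06 in BN rats (adjusted p = 0.37). The adipocyte transcription factor Pparg was at 11.79, 11.23, 11.04 and 11.91 in GK rats, against 11.71, 11.44, 11.70, 11.57 and 11.95 in BN rats (adjusted p = 0.71). Of the 13 markers 0 rose and 2, Retn and Thrsp, fell in GK rats. This is 15.4% called, against 10.8% of genes detected on at least 4 arrays. The median difference, GK minus BN on the log2 scale, was -0.18, and 2 of the 13 differences lay above 0. When each array was left out in turn, 0 to 1 were higher and 2 lower. Genes of other tissues were high on 2 GK arrays. On GK1 the 27 hepatocyte markers lay a median of 2.60 above the BN mean, against -0.21 to 0.29 on the other GK arrays and -0.17 to 0.45 on the BN arrays, and the log2 of their summed level was 13.8 on GK1, 12.8 to 13.002 on the other GK arrays and 12.9 to 13.8 on the BN arrays. Ambp, a plasma protein precursor made by hepatocytes, was at 9.55, 6.27, 6.39 and 6.08 in GK rats, against 6.51, 4.91, 4.30, 4.67 and 5.46 in BN rats. The transport protein gene Hpx was at 8.63, 5.23, 3.58 and 4.95 in GK rats, against 6.54, 4.40, 3.93, 4.26 and 4.54 in BN rats. On GK2 the 28 skeletal muscle markers lay a median of 2.35 above the BN mean, against -0.49 to 0.04 on the other GK arrays and -0.31 to 0.59 on the BN arrays. The fast fibre gene Actn3 was at 5.12, 13.07, 9.29 and 7.53 in GK rats, against 9.77, 4.04, 8.45, 9.995 and 7.78 in BN rats, so that muscle RNA also varied among BN rats. Of the 27 hepatocyte markers 1 rose and 1 fell, and of the 28 muscle markers none passed the test. Their part in the results was not tested beyond leaving the arrays out, and most group counts below are given with their range when each array was left out in turn.

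**Figure D1:**
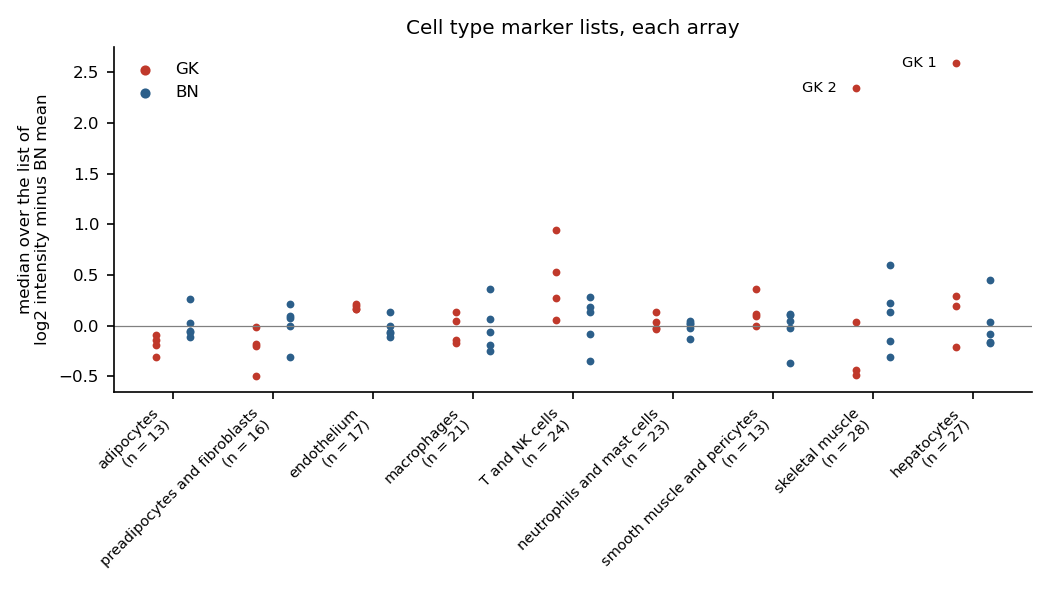
For each cell type list, the y axis gives the median over its genes of the normalized log2 intensity minus the mean of the BN arrays, with 1 point per array (GK left, BN right of each tick). GK1 stands at 2.60 for hepatocyte genes and GK2 at 2.35 for skeletal muscle genes, whereas every other point lies below 1.

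At an adjusted p under 0.05, 1075 of 22226 probes differed between the strains (4.84%), of which 477 were higher (2.15%) and 598 lower (2.69%) in GK rats. The differences below are GK minus BN on the log2 scale, each with its standard error (SE) from limma. With neqc, another background correction and normalization, the split was 579 higher and 477 lower of 1056, or 54.8% higher against 44.4%. The median size of the log2 fold change among called probes was 0.85, and 103 probes differed by over 4-fold, of which 34 were higher and 69 lower. The strains did not overlap for 999 of the 1075, against 8.8% of all probes. This too is a description only, since calls favour probes whose strains lie apart on these same arrays. The first principal component over 8017 detected probes held 52.2% of the variance and separated the strains. The 9 arrays lay on 6 slides, and within slides 1, 3 and 4, which held both strains, the GK minus BN difference had the pooled direction in 1069, 1072 and 1070 of the 1075 probes, a description only, since the calls rest on the same arrays. Leaving out GK1 left 697 calls and leaving out GK2 left 728, and without both 467 were called. Counted as 1 probe per gene, 796 of 13278 genes with a symbol passed (5.99%), 353 higher (2.66%) and 443 lower (3.34%), and among the 6210 genes detected on at least 4 arrays the share was 10.8%. Group counts below are set against these shares.

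The largest changes among genes detected on all 9 arrays were decreases. Bnip3 (probe ILMN_1356892), a receptor on the mitochondrial outer membrane that marks mitochondria for autophagy, had values of 8.32, 7.98, 8.76 and 8.22 in GK rats, against 14.01, 14.21, 13.91, 14.40 and 14.23 in BN rats. It was 56.9-fold lower in GK than in BN rats (log2 difference -5.83, SE 0.17, adjusted p = 1.16e-10) and changed the most of the genes detected on every array that were named by the rule. Bnip3 was read by 1 probe. Whether this probe, or any probe of the genes named below, matches the transcripts of both strains equally was not tested. Cyp2e1 (probe ILMN_1358592), a cytochrome P450 that oxidises ethanol and fatty acids, was at 9.42, 8.70, 8.64 and 11.32 in GK rats, against 14.25, 14.43, 13.66, 13.93 and 12.76 in BN rats, which is 19.5-fold lower (log2 difference -4.28, SE 0.48, adjusted p = 8.27e-05). GK4 lay nearest to the BN values, and all 4 GK values lay below the lowest BN value.

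Soluble epoxide hydrolase (Ephx2, probe ILMN_1359107), which converts epoxides of fatty acids to diols, was at 7.98, 8.04, 8.17 and 8.13 in GK rats, against 11.83, 11.70, 11.63, 11.72 and 11.92 in BN rats (log2 difference -3.68, SE 0.12, adjusted p = 3.06e-10). The lipid-presenting molecule Cd1d1 had values of 6.79, 6.63, 6.94 and 6.57 in GK rats, against 9.74, 10.26, 10.32, 10.28 and 10.70 in BN rats (log2 difference -3.53, SE 0.18, adjusted p = 2.91e-08). Adhfe1, an alcohol dehydrogenase of mitochondria, was at 6.65, 6.49, 6.49 and 7.24 in GK rats, against 9.97, 9.97, 9.96, 9.81 and 9.71 in BN rats (log2 difference -3.17, SE 0.16, adjusted p = 3.75e-08). In each of these 3 genes the GK values lay close together and far below every BN value. The zinc finger gene Zcchc9 (-2.94, adjusted p = 3.73e-08), the kinesin-binding protein gene Kifbp (-2.89, adjusted p = 1.23e-07), the transcription elongation factor gene Tcea1 (-2.80, adjusted p = 4.34e-08) and the cytochrome P450 gene Cyp2b15 (-2.75, adjusted p = 4.74e-07) fell likewise, with log2 fold changes as given.

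Pim3 (probe ILMN_1360660), a serine/threonine kinase, showed the largest increase among genes detected on all 9 arrays, with values of 10.73, 10.68, 10.35 and 10.66 in GK rats, against 7.18, 7.28, 6.83, 7.54 and 7.80 in BN rats, or 9.71-fold higher (log2 difference 3.28, SE 0.18, adjusted p = 7.78e-08). Cbr1, a carbonyl reductase that acts on prostaglandins and xenobiotic ketones, was at 12.09, 11.97, 12.53 and 12.72 in GK rats, against 10.50, 9.74, 9.55, 10.08 and 9.98 in BN rats (log2 difference 2.36, SE 0.21, adjusted p = 7.78e-06). Nbn, which encodes the nibrin subunit of a complex that senses DNA breaks, was at 8.65, 8.69, 8.52 and 8.63 in GK rats, against 6.05, 6.35, 6.21, 6.78 and 6.64 in BN rats (log2 difference 2.22, SE 0.16, adjusted p = 8.15e-07). The GK arrays differed by less than 1 on this scale in all 3 genes, and the strains were apart by more than that. Endothelial nitric oxide synthase (Nos3) had values of 10.03, 9.67, 9.59 and 9.66 in GK rats, against 8.02, 7.91, 7.70, 7.77 and 7.85 in BN rats, or 3.70-fold higher (log2 difference 1.89, SE 0.13, adjusted p = 7.66e-07). Further increases were those of the telomere helicase gene Rtel1 (1.65, adjusted p = 8.87e-06), the neuronatin gene Nnat (1.71, adjusted p = 0.0147), the transcription factor gene Tcf4 (1.70, adjusted p = 0.0078) and the surface antigen gene Ly6c (1.67, adjusted p = 0.00608). In BN rats Tcf4 was at 7.01, 7.05, 6.92, 8.30 and 8.61, and Ly6c at 7.19, 7.29, 7.16, 8.67 and 8.53. BN4 and BN5 thus lay above the other BN arrays, and they were on slides 5 and 6, which held no GK array. A second Nnat probe changed to the same extent (log2 fold change 1.73, adjusted p = 0.0206).

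**Figure D2:**
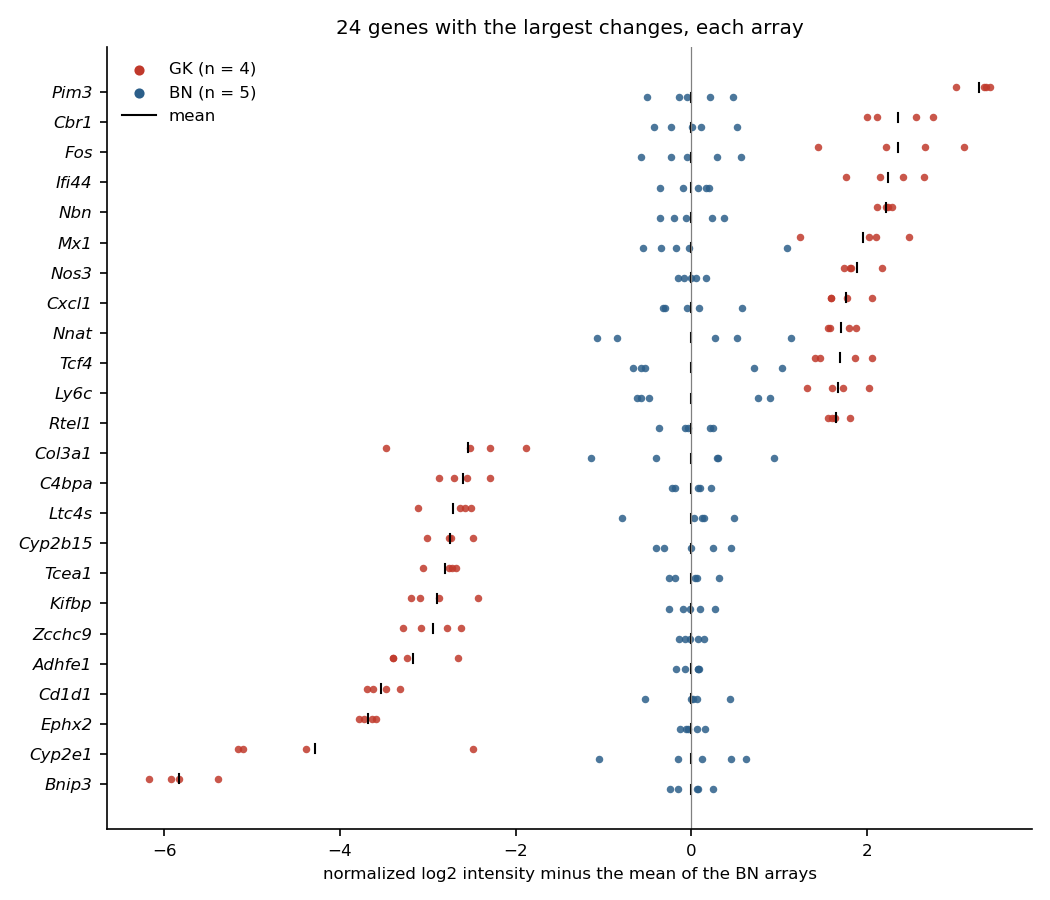
The x axis gives the normalized log2 intensity minus the mean of the BN arrays, with 1 point per array and a bar at each strain's mean, for the 12 genes with the largest increase and the 12 with the largest decrease in GK rats. Only genes in which no GK point overlaps a BN point were chosen for the plot, and Bnip3 and Cyp2e1 lie farthest to the left.

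Among the 1075 called probes, 36 were detected on every GK and no BN array, and 62 on every BN and no GK array. For these the fold is a lower bound against the lowest detected level of each array. In GK rats alone these included Ifi47, an interferon-induced GTPase (at least 20.3-fold higher), Echdc2, a mitochondrial enoyl-CoA hydratase domain protein (at least 17.5-fold higher), and Ifit1, which binds viral RNA (at least 10.3-fold higher). Echdc2 was at 9.70, 9.82, 9.59 and 9.58 in GK rats, against 4.10, 4.30, 3.96, 3.60 and 4.43 in BN rats (adjusted p = 1.16e-10). Serhl2, a serine hydrolase (at least 4.57-fold higher), Tnfrsf8, the CD30 receptor (at least 3.16-fold higher), and Dynlrb2, a dynein light chain (at least 3.05-fold higher), completed the 6 with the highest bounds.

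In BN rats alone were Washc3, a subunit of the endosomal WASH complex (at least 39.0-fold lower in GK), the nucleosome-binding protein gene Hmgn1 (at least 38.7-fold lower) and Rpl30, a protein of the large ribosomal subunit (at least 38.7-fold lower). Washc3 was at 3.93, 4.84, 4.51 and 4.46 in GK rats, against 10.79, 10.68, 10.72, 10.79 and 10.94 in BN rats (adjusted p = 1.16e-10). Rpl30 was at 4.62, 4.55, 4.41 and 4.69 in GK rats, against 10.29, 9.92, 10.22, 11.52 and 11.91 in BN rats (adjusted p = 7.78e-08), with all 4 GK values in the range of undetected probes. The splicing protein gene Cd2bp2 (at least 17.6-fold lower), the endosomal protein gene Plekhf2 (at least 9.06-fold lower) and the matrix protein gene Efemp1 (at least 8.39-fold lower) followed. Each of these genes was read by 1 probe, and whether the probes match the transcripts of both strains equally was not tested.

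Genes of lipid storage differed little. Of 29 measured genes, 0 rose, 1 fell and 28 did not pass the test (3.45% called, median log2 difference -0.01), with 0 to 1 higher and 1 to 2 lower when each array was left out in turn. The 1 that fell was Cd36, a fatty acid transporter, with values of 12.52, 12.17, 12.46 and 12.41 in GK rats, against 13.44, 13.40, 13.40, 13.87 and 13.97 in BN rats (log2 difference -1.23, SE 0.16, adjusted p = 0.000298). Of 14 measured genes of fatty acid synthesis and desaturation, 1 rose, 1 fell and 12 did not pass the test (14.3% called, median log2 difference 0.01), with 1 higher and 1 to 2 lower when each array was left out in turn. Elovl5, which elongates polyunsaturated fatty acids, was at 8.81, 8.96, 8.58 and 8.38 in GK rats, against 7.20, 7.40, 7.31, 7.52 and 7.66 in BN rats (log2 difference 1.26, SE 0.15, adjusted p = 0.000151), and every GK value was above every BN value. Thrsp, a regulator of lipogenic enzymes, fell by 0.89 on the log2 scale (adjusted p = 0.00297, or 0.0727 with slide as a block). Scd, the stearoyl-CoA desaturase, ranged widely in both strains, with values of 13.79, 13.46, 14.66 and 12.22 in GK rats, against 13.54, 10.34, 12.38, 10.83 and 14.04 in BN rats (adjusted p = 0.378).

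Among adipocyte transcription factors, of 34 measured genes, 0 rose, 3 fell and 31 did not pass the test (8.82% called, median log2 difference -0.13), with 0 to 1 higher and 2 to 3 lower when each array was left out in turn. Nfib, which encodes nuclear factor I/B, was at 5.76, 5.38, 6.19 and 5.83 in GK rats, against 10.19, 10.08, 9.90, 10.59 and 10.78 in BN rats (log2 difference -4.52, SE 0.20, adjusted p = 9.15e-09) and was detected on 1 GK and 5 BN arrays. Klf15, a glucocorticoid-responsive Krüppel-like factor, was at 8.91, 8.49, 8.01 and 8.86 in GK rats, against 9.93, 9.33, 9.35, 9.66 and 10.16 in BN rats (log2 difference -1.12, SE 0.22, adjusted p = 0.00757). The retinoid receptor gene Rxrg was the third (-0.79, adjusted p = 0.0267, or 0.218 with slide as a block, lost without BN4, GK1, GK2 or GK3, adjusted p = 0.0534 to 0.0939). Of 27 adipokines and secreted hormones, 1 rose and 2 fell (11.1% called), with 1 to 3 higher and 2 to 3 lower when each array was left out in turn, the most higher without BN1 or BN5. Resistin (Retn), which adipocytes secrete in rodents, was at 7.28, 7.65, 8.38 and 8.20 in GK rats, against 10.29, 9.08, 8.95, 9.46 and 9.08 in BN rats (log2 difference -1.49, SE 0.28, adjusted p = 0.00603, or 0.145 with slide as a block). Within slides 1, 3 and 4 its difference was -3.01, -0.70 and -0.74. The chemoattractant chemerin (Rarres2) fell by 0.78 (adjusted p = 0.00536, or 0.0713 with slide as a block) and the monocyte chemokine Ccl2 rose by 0.89 (adjusted p = 0.00354). Leptin (Lep) was at 8.26, 8.05, 7.57 and 7.21 in GK rats, against 4.81, 6.67, 6.72, 6.40 and 7.43 in BN rats, and its difference of 1.37 did not pass the test (adjusted p = 0.0767, 0.0221 to 0.21 when each array was left out in turn). Ucp1, the uncoupling protein of brown adipocytes, varied most among BN rats, with values of 6.10, 4.65, 4.52 and 7.46 in GK rats, against 5.28, 4.21, 9.81, 8.31 and 11.69 in BN rats. The genes Adipoq, Pparg, Scd, Lep, Ucp1 and Slc2a4 are given here for their known roles and were chosen after their values were seen.

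Few genes of insulin signalling passed the test. Of 41 measured genes, 0 rose, 1 fell and 40 did not pass the test (2.44% called, median log2 difference -0.03), with 0 higher and 0 to 1 lower when each array was left out in turn. The 1 that fell was Sesn1, a stress-induced inhibitor of mTOR signalling (-0.54, adjusted p = 0.0385, or 0.0593 with slide as a block, lost without any 1 array other than BN4, adjusted p = 0.0552 to 0.109). GLUT4 (Slc2a4) was at 8.13, 8.38, 8.17 and 8.03 in GK rats, against 7.70, 8.56, 8.29, 7.97 and 8.55 in BN rats (adjusted p = 0.949). Genes of glycolysis and pyruvate oxidation were called more often. Of 40 measured genes, 6 rose, 4 fell and 30 did not pass the test (25% called, median log2 difference 0.19), with 4 to 6 higher and 2 to 4 lower when each array was left out in turn, the fewest lower without GK3. The hexokinase gene Hk3 was at 7.21, 7.55, 6.41 and 7.24 in GK rats, against 5.48, 5.27, 5.52, 5.34 and 5.54 in BN rats and was detected in GK rats alone (at least 2.79-fold higher, adjusted p = 0.00012). Enolase 2 (Eno2) was at 8.07, 8.05, 7.75 and 8.06 in GK rats, against 6.59, 6.18, 6.61, 6.57 and 6.94 in BN rats (log2 difference 1.40, SE 0.16, adjusted p = 7.69e-05). Dlat, the E2 subunit of the pyruvate dehydrogenase complex, rose by 0.93 (adjusted p = 0.00306). Slc16a1, a lactate and pyruvate carrier, fell by 0.92 (adjusted p = 0.0155, or 0.172 with slide as a block, lost without GK3 or GK4, adjusted p = 0.052 to 0.057). Of 17 genes of glycogen metabolism the glycogen synthase gene Gys2 was the 1 past the threshold (-1.13, adjusted p = 0.0171, or 0.236 with slide as a block, lost without GK1 or GK2, adjusted p = 0.059 to 0.061).

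In mitochondria, none of 19 genes of the tricarboxylic acid cycle was called by limma (0 also when each array was left out in turn), and citrate synthase (Cs) had the smallest p (log2 difference 0.44, adjusted p = 0.106). Of 58 measured genes for subunits of oxidative phosphorylation, 0 rose, 2 fell and 56 did not pass the test (3.45% called, median log2 difference -0.09), with 0 higher and 0 to 3 lower when each array was left out in turn, the fewest lower without GK1 or GK2. Of 37 measured genes of fatty acid oxidation, 2 rose, 2 fell and 33 did not pass the test (10.8% called, median log2 difference -0.28), with 2 higher and 0 to 4 lower when each array was left out in turn, the fewest lower without GK2 or GK3 and the most lower without GK4. Echdc2 was the member with the largest change, and the ketone body enzyme gene Bdh1 rose by 1.26 (adjusted p = 0.000377) with detection on 3 GK arrays and no BN array. Of the mitophagy and autophagy genes, 1 rose and 4 fell of 45 (11.1% called), with 1 higher and 2 to 4 lower when each array was left out in turn, the fewest lower without GK1. Besides Bnip3, the mitochondrial outer membrane protein gene Fundc2 changed, at 8.26, 8.39, 8.65 and 8.63 in GK rats, against 7.22, 7.40, 7.31, 7.001 and 7.28 in BN rats (log2 difference 1.24, SE 0.14, adjusted p = 7e-05). Bnip3 is also a hypoxia-induced gene, and of 25 genes of the hypoxia response it was the 1 that fell while 1 rose, with 0 to 2 higher and 1 lower when each array was left out in turn.

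Of 44 measured genes for the breakdown of branched chain and other amino acids, 1 rose, 5 fell and 38 did not pass the test (13.6% called, median log2 difference -0.04), with 0 to 1 higher and 2 to 5 lower when each array was left out in turn, the fewest lower without GK3, BN2 or BN3. Cbs, which makes cystathionine from homocysteine, was at 6.43, 6.27, 5.48 and 6.27 in GK rats, against 9.23, 8.95, 8.42, 8.97 and 8.27 in BN rats (log2 difference -2.65, SE 0.23, adjusted p = 7.04e-06), and all GK values lay below all BN values. Bckdhb, a subunit of the branched chain ketoacid dehydrogenase, fell by 0.87 (adjusted p = 0.00357). Cbs and the pterin reductase gene Qdpr (-1.07, adjusted p = 0.00554, or 0.115 with slide as a block) were 2 of the 4 genes that fell among 26 of folate and one-carbon metabolism, where none rose, with 0 to 1 higher and 3 to 4 lower when each array was left out in turn. Of 63 measured genes of cytosolic ribosomal proteins, 2 rose, 4 fell and 57 did not pass the test (9.52% called, median log2 difference -0.24), and 9 of the 63 had a difference above 0. The counts were 1 to 3 higher and 3 to 6 lower when each array was left out in turn. Among the ribosomal proteins, Rpl30 (above), Rps18 (-1.47, adjusted p = 0.00605) and Rps7 (-1.12, adjusted p = 0.00108) fell, and Rps16 (1.75, adjusted p = 8.45e-06) rose. Several of these genes have near-identical copies, so which copy a probe read is uncertain. Of 41 proteasome subunits none passed in the limma test (0 to 1 lower when each array was left out in turn).

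Enzymes that make or clear eicosanoids, the signalling lipids derived from arachidonic acid, more often fell than rose in GK rats among those that passed the test. Of 45 measured genes, 2 rose, 9 fell and 34 did not pass the test (24.4% called, median log2 difference -0.22), and the counts were the same without GK1 and without GK2 (2 to 4 higher and 8 to 10 lower when each array was left out in turn, the most higher without BN1). Ephx2 (above) fell the most. Leukotriene C4 synthase (Ltc4s), which makes the first cysteinyl leukotriene, was at 6.12, 6.60, 6.73 and 6.66 in GK rats, against 9.36, 9.38, 9.72, 9.26 and 8.45 in BN rats (log2 difference -2.71, SE 0.22, adjusted p = 4.38e-06). On the prostaglandin side, the E2 synthase gene Ptges2 was at 7.78, 7.85, 8.04 and 8.26 in GK rats, against 9.05, 9.13, 9.25, 8.84 and 8.96 in BN rats (log2 difference -1.06, SE 0.14, adjusted p = 0.000383), and the carbonyl reductase gene Cbr3 was at 10.55, 10.64, 10.89 and 11.08 in GK rats, against 12.79, 12.92, 12.76, 12.89 and 12.83 in BN rats (log2 difference -2.05, SE 0.14, adjusted p = 4.15e-07). Cbr3 fell, whereas Cbr1 rose by 2.36. Prostacyclin synthase (Ptgis), the reductases Ptgr1 and Akr1c3 and the phospholipase A2 gene Pla2g12a also fell, between -1.55 and -0.76 on the log2 scale (lost for Ptgis and Pla2g12a with slide as a block, adjusted p = 0.0534 and 0.0563), whereas Pla2g7, which clears platelet-activating factor, rose by 1.29 (adjusted p = 0.00298). The ninth called as lower, the synthase gene Ptges, was detected on no array, so no fold is given.

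Of 141 measured genes for enzymes that oxidise and conjugate foreign compounds, 8 rose, 8 fell and 125 did not pass the test (11.3% called, median log2 difference 0.02), with 7 to 8 higher and 8 to 9 lower when each array was left out in turn. Beside Cyp2e1, Ephx2 and Cyp2b15, the arylamine acetyltransferase gene Nat2 fell by 2.39 (adjusted p = 4.15e-07) and the sulfotransferase gene Sult1a1 by 0.95 (adjusted p = 0.00612, or 0.0965 with slide as a block). Nr1i3, the constitutive androstane receptor that induces such enzymes in liver, was at 7.26, 7.47, 6.87 and 7.01 in GK rats, against 3.70, 3.38, 3.77, 3.47 and 4.08 in BN rats (at least 3.05-fold higher, adjusted p = 2.7e-08). It was detected on every GK and no BN array. Cyp1b1, a cytochrome P450 of steroid and fatty acid oxidation, rose by 1.53 (adjusted p = 5.48e-05). In the antioxidant list the aldo-keto reductase gene Akr1b8 was at 4.04, 4.16, 4.42 and 4.13 in GK rats, against 7.88, 7.49, 7.87, 7.89 and 8.09 in BN rats and was not detected in GK rats (at least 5.08-fold lower, adjusted p = 2.67e-09), whereas thioredoxin reductase 1 (Txnrd1) rose by 1.79 (adjusted p = 0.000383). That list had 3 genes that rose and 4 that fell of 40 (17.5% called), with 2 to 3 higher and 3 to 4 lower when each array was left out in turn.

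Genes induced by interferon were the list with the most increases over all 9 arrays, although without BN5 the extracellular matrix list had 16 and the interferon list 14. Of 54 measured genes, 15 rose, 1 fell and 38 did not pass the test (29.6% called, median log2 difference 0.24), and without GK1 or without GK2 the counts were 14 higher and 1 lower (14 to 16 higher and 1 lower when each array was left out in turn). Interferons act through STAT and IRF transcription factors, which bind the interferon-stimulated response element (ISRE) in the promoters of their targets. The letters GAAANNGAAA, searched on both strands, occur in 3.92% of 33469 RefSeq promoters of the GRCr8 build (250 bases before to 50 after each start site), and in 22 of 39 promoters (56.4%) of the measured list members that the table holds. Of the 8 genes that rose and are in the table, 5 have a match (62.5%), a share near that of the whole list. Gbp2, Ifi27, Ifi44, Irf7 and Irgm have a match, and Ifi47, Irf9 and Mx1 have none in this window. The stretches of 30 bases around 4 of the matches are given 5′ to 3′ on the strand of the gene, with the match in capitals, to show the letters in genes that rose and were detected. They are not the genes that rose the most, since Ifi47 has no match and Ifit1 and Mx2 are not in the table.
Ifi44: gcacactgagTTTCAGTTTCatttcccagg
Irf7: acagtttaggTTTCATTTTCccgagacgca
Gbp2: agttttttagTTTCACTTTCattgtcttaa
Ifi27: gagagctgggGAAATGGAAActtacctcat
They lie at chr2:243303847-243303876 on the minus strand (Ifi44), chr1:205800073-205800102 on the minus strand (Irf7), chr2:234005686-234005715 on the plus strand (Gbp2) and chr6:128355218-128355247 on the plus strand (Ifi27). The matches of Ifi44, Irf7 and Gbp2 read as the reverse complement of the searched letters, and that of Ifi27 as the letters themselves. A match is a description of the sequence and not of binding.

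Ifi47 was at 9.90, 9.71, 9.75 and 10.18 in GK rats, against 4.19, 4.46, 4.49, 4.74 and 4.79 in BN rats (at least 20.3-fold higher, adjusted p = 1.16e-10), with no BN array detected. Ifit1 was at 9.16, 9.02, 8.37 and 9.06 in GK rats, against 4.02, 4.23, 5.08, 4.81 and 4.24 in BN rats (at least 10.3-fold higher, adjusted p = 3.75e-08), and GK3 was the lowest of the GK arrays. The antiviral GTPase gene Mx2 was at 9.30, 8.89, 8.60 and 9.001 in GK rats, against 5.70, 4.84, 5.70, 6.98 and 5.41 in BN rats (log2 difference 3.22, SE 0.32, adjusted p = 2.79e-05), and 1 BN array, BN4, was detected. BN4 also had the highest BN value of Mx1, which was at 9.43, 9.80, 8.56 and 9.35 in GK rats, against 7.30, 6.77, 7.15, 8.41 and 6.97 in BN rats (log2 difference 1.96, SE 0.31, adjusted p = 0.00158). Ifi44, whose promoter stretch is given above, was at 9.79, 9.55, 8.89 and 9.29 in GK rats, against 7.33, 6.78, 7.21, 7.30 and 7.03 in BN rats, or 4.75-fold higher (log2 difference 2.25, SE 0.18, adjusted p = 4e-06). The regulator Irf7 was at 10.40, 10.86, 9.67 and 10.49 in GK rats, against 8.47, 8.59, 9.24, 9.07 and 8.28 in BN rats (log2 difference 1.63, SE 0.24, adjusted p = 0.00112). GK3 was again the lowest GK array in Mx1, Ifi44 and Irf7. Smaller changes were those of the GTPase gene Gbp2 (0.99, adjusted p = 0.00138), Ifi27 (0.74, adjusted p = 0.0102) and the regulator gene Irf9 (0.67, adjusted p = 0.0105, or 0.101 with slide as a block), while Irgm was called as higher (adjusted p = 0.00462, or 0.0948 with slide as a block) but was detected on no array, so no fold is given. The exception was Ifitm1, an antiviral membrane protein gene, which was lower in GK, at 8.66, 8.33, 8.37 and 8.14 in GK rats, against 10.65, 9.15, 9.92, 9.60 and 9.61 in BN rats (log2 difference -1.41, SE 0.24, adjusted p = 0.00298). Isg15, a ubiquitin-like protein induced by interferon, was detected on no array.

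**Figure D3:**
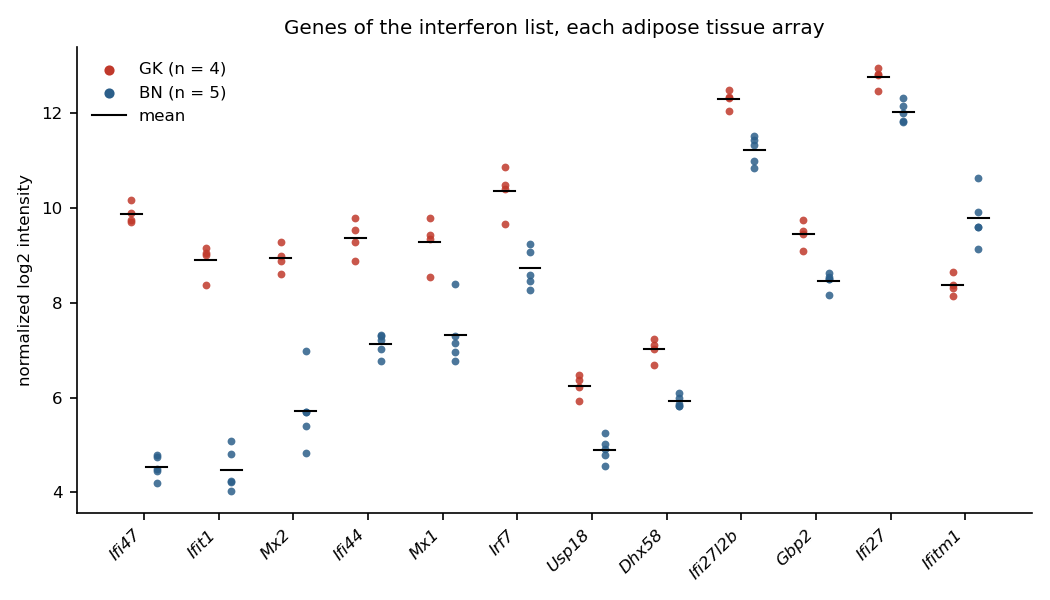
Normalized log2 intensity (y axis) of 12 genes of the interferon list on each adipose tissue array, with GK left and BN right of each tick and a bar at each strain's mean. In 11 genes every GK point lies above every BN point, by the widest gap in Ifi47, and in Ifitm1 every GK point lies below.

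Of 81 measured genes of chemokines, cytokines and their receptors, 8 rose, 3 fell and 70 did not pass the test (13.6% called, median log2 difference 0.10), with 6 to 9 higher and 2 to 3 lower when each array was left out in turn. Cxcl1, which attracts neutrophils, was at 8.24, 8.24, 8.42 and 8.71 in GK rats, against 6.60, 6.34, 6.33, 6.73 and 7.22 in BN rats (log2 difference 1.76, SE 0.19, adjusted p = 5.06e-05). The interleukin 33 receptor gene Il1rl1 was at 7.10, 6.90, 6.93 and 7.19 in GK rats, against 4.75, 4.72, 4.66, 4.61 and 4.93 in BN rats and was detected in GK rats alone (at least 2.80-fold higher, adjusted p = 7.17e-08). In the opposite direction, the interleukin 2 receptor alpha gene Il2ra was at 5.64, 5.48, 5.78 and 6.22 in GK rats, against 9.75, 8.60, 9.42, 7.97 and 8.18 in BN rats (log2 difference -3.00, SE 0.32, adjusted p = 5.56e-05), with detection on 1 GK and 5 BN arrays. In the T and NK cell list 21 of 24 differences were positive, with a median of 0.40, against a median of -0.000661 over all probes, and 2 passed the test, the granzyme gene Gzma (1.98, adjusted p = 3.14e-05) and the CD3 subunit gene Cd3e (0.83, adjusted p = 0.0262, or 0.171 with slide as a block, lost without BN4, GK2, GK3 or GK4, adjusted p = 0.0599 to 0.0918). By array their median over the BN mean was 0.27, 0.94, 0.06 and 0.53 in GK and -0.35 to 0.28 in BN rats, so the strains overlapped. Only 6 of these 24 genes were detected on every array of a strain. Of 21 macrophage genes 2 rose and 0 fell (9.52% called, median log2 difference -0.04), and 9 of the 21 differences were positive. The counts were 1 to 2 higher and 0 to 1 lower when each array was left out in turn. Among those that rose was Lgals3 (galectin 3), at 13.88, 13.88, 14.22 and 14.12 in GK rats, against 12.54, 13.32, 13.26, 13.17 and 13.16 in BN rats (log2 difference 0.93, SE 0.17, adjusted p = 0.00439).

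More complement genes fell than rose. Of 27 measured genes, 1 rose, 7 fell and 19 did not pass the test (29.6% called, median log2 difference -0.0031), with 0 to 1 higher and 5 to 7 lower when each array was left out in turn. The inhibitor C4bpa, which binds C4b, was at 6.90, 6.32, 6.49 and 6.64 in GK rats, against 9.29, 9.27, 9.42, 9.01 and 8.97 in BN rats (log2 difference -2.60, SE 0.15, adjusted p = 1.22e-07). Clusterin (Clu) was at 10.58, 9.80, 10.09 and 10.28 in GK rats, against 11.60, 10.71, 10.96, 11.74 and 11.68 in BN rats (log2 difference -1.15, SE 0.23, adjusted p = 0.00942), and the C1 inhibitor gene Serping1 fell by 0.85 (adjusted p = 0.0094). The C4 component gene C4b fell by 1.20 (adjusted p = 0.0187, lost without GK1 or GK3, adjusted p = 0.0658 to 0.0721). C4bpa, Clu, Serping1 and Cd55 are inhibitors of the cascade, whereas C4b, C2 and C8g are components of it. Hepatocytes also make several of these proteins. Without GK1, where hepatocyte genes were high, 0 rose and 5 fell, and without GK3 the counts were the same. None rose either without GK2, BN2, BN3, BN4 or BN5, and the part of hepatocyte RNA was not tested. For antigen presentation, 3 genes rose and 2 fell of 33, with 2 to 3 higher and 2 to 6 lower when each array was left out in turn, the most lower without GK2, so that more fell than rose there. Beside Cd1d1, the lysosomal protease gene Ctss fell, at 9.53, 9.71, 9.85 and 9.86 in GK rats, against 11.22, 10.71, 10.89, 11.45 and 10.94 in BN rats (log2 difference -1.30, SE 0.16, adjusted p = 0.000211). The class II gene RT1-Db1 (1.26, adjusted p = 0.0125) and the class Ib gene RT1-M3-1 (0.69, adjusted p = 0.0111, or 0.0963 with slide as a block) rose. These MHC genes have close relatives, so which one a probe read is uncertain.

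The counts of the extracellular matrix list moved with single arrays. Of 122 measured genes, 13 rose, 5 fell and 104 did not pass the test (14.8% called, median log2 difference 0.08), but without GK1 there were 4 higher and 3 lower and without GK2 6 higher and 8 lower. The counts were 4 to 16 higher and 3 to 8 lower when each array was left out in turn, the fewest higher without GK1, the fewest lower without GK1 and the most lower without GK2 or BN2. Spock2, a proteoglycan gene, was at 4.03, 3.64, 3.91 and 3.78 in GK rats, against 8.63, 7.96, 8.38, 8.44 and 8.11 in BN rats (at least 7.00-fold lower, adjusted p = 6.95e-10). The fibrillar collagen gene Col3a1 was at 9.21, 9.44, 9.85 and 8.26 in GK rats, against 12.68, 10.59, 12.03, 11.33 and 12.04 in BN rats (log2 difference -2.54, SE 0.38, adjusted p = 0.00108). Within slide 3, which held GK3 and BN2, its difference was -0.74, against -3.47 and -3.77 within the other slides that held both strains. The integrin gene Itga4 was at 7.14, 7.21, 6.30 and 6.98 in GK rats, against 4.66, 5.07, 4.76, 4.37 and 4.87 in BN rats (at least 2.58-fold higher, adjusted p = 1e-05), and the inhibitor of matrix proteases Timp1 was at 11.32, 11.37, 11.08 and 10.91 in GK rats, against 10.22, 9.02, 9.89, 9.27 and 9.52 in BN rats (log2 difference 1.59, SE 0.22, adjusted p = 0.000519). The endothelial and platelet adhesion protein gene Vwf was at 10.84, 10.37, 10.35 and 10.12 in GK rats, against 12.74, 12.24, 12.25, 12.25 and 12.28 in BN rats (log2 difference -1.93, SE 0.17, adjusted p = 6.66e-06), with BN1 above the other BN arrays. In the endothelial list Vwf fell while Nos3 and Cdh5 (at least 1.55-fold higher, adjusted p = 0.00324, or 0.0855 with slide as a block), the gene of VE-cadherin, rose, of 17 measured (2 higher and 1 lower when each array was left out in turn). Of 16 genes of preadipocytes and fibroblasts, 1 rose and 3 fell (1 to 2 higher and 1 to 4 lower when each array was left out in turn, the fewest lower without GK1, GK3 or BN3).

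Immediate early genes are transcribed within minutes of a stimulus. Of 24 measured genes, 4 rose, 1 fell and 19 did not pass the test (20.8% called, median log2 difference 0.23), with 2 to 9 higher and 1 lower when each array was left out in turn, the fewest higher without GK1 or GK2 and the most higher without BN5. Fos, a subunit of the AP-1 factor, was at 10.88, 11.33, 10.44 and 9.67 in GK rats, against 7.65, 8.17, 7.99, 8.51 and 8.78 in BN rats, or 5.13-fold higher (log2 difference 2.36, SE 0.30, adjusted p = 0.000271). Its partner gene Junb was at 9.94, 9.99, 9.87 and 9.78 in GK rats, against 9.02, 8.98, 8.75, 8.69 and 9.22 in BN rats (log2 difference 0.96, SE 0.14, adjusted p = 0.000719). Egr1 rose by 1.24 (adjusted p = 0.019, lost without GK1, GK2 or GK3, adjusted p = 0.0604 to 0.065), and Maff fell (at least 1.63-fold lower, adjusted p = 0.0025, or 0.0828 with slide as a block). No gene of 16 of the circadian clock passed in limma, also when each array was left out in turn, and its output gene Tef had the smallest p (log2 difference -0.46, adjusted p = 0.107). The time of day at which tissue was taken is not given in the sources used here. Of 33 chaperone and stress genes of the endoplasmic reticulum 3 rose, and 0 did without BN1, BN3, BN4 or any 1 GK array. Of 22 heat shock protein genes 1 rose, and 0 did without GK1, GK2 or GK3. Hsd11b1, which regenerates active glucocorticoid in adipose tissue, rose and was at 10.99, 11.08, 11.07 and 10.88 in GK rats, against 10.18, 9.78, 9.91, 9.92 and 9.999 in BN rats (log2 difference 1.05, SE 0.13, adjusted p = 0.000156). It was the 1 that rose of 20 measured genes of the glucocorticoid response, while 2, Klf15 and Sult1a1, fell. Of that list 15% were called, the median log2 difference was -0.20, and 7 of the 20 differences lay above 0. With each array left out in turn, 1 to 2 were higher and 2 lower.

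Further lists held 5 calls or fewer each. Of cholesterol genes 2 rose and 3 fell of 25 (20% called, 1 to 2 higher and 2 to 3 lower when each array was left out in turn), with the sterol reductase gene Tm7sf2 (-1.25, adjusted p = 8.06e-05) and the efflux transporter gene Abca1 (-0.96, adjusted p = 0.000834) lower and the sterol carrier gene Stard4 (0.96, adjusted p = 0.000859) higher. Of 35 genes of adrenergic signalling and thermogenesis 2 rose and 2 fell (11.4% called, 0 to 1 higher and 1 to 2 lower when each array was left out in turn, the fewest higher without GK1, GK2, GK3, BN2, BN3 or BN4), among them the monoamine transporter gene Slc22a3 (-1.51, adjusted p = 0.0111, or 0.141 with slide as a block), which was lower. The cell cycle inhibitor Cdkn2c was at 5.94, 5.998, 6.74 and 6.46 in GK rats, against 8.91, 8.25, 8.43, 8.93 and 8.21 in BN rats (log2 difference -2.26, SE 0.21, adjusted p = 1.22e-05) and was 1 of 3 called of 33 cell cycle genes (9.09%, 0 to 2 higher and 1 to 2 lower when each array was left out in turn). Of 62 genes of Wnt, BMP and TGF-beta signalling 1 rose and 2 fell (0 to 3 higher and 0 to 4 lower when each array was left out in turn, the most higher without GK4, the fewest lower without GK1 or GK3 and the most lower without GK4 or BN5), of 76 of MAP kinases and their phosphatases 0 rose and 1 fell (0 to 1 higher and 0 to 1 lower when each array was left out in turn), and of 18 of the growth hormone and IGF system none passed in limma (0 to 1 when each array was left out in turn). The last 3 shares, of 4.84%, 1.32% and 0%, are at or below the 5.99% over all genes.

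**Figure D4:**
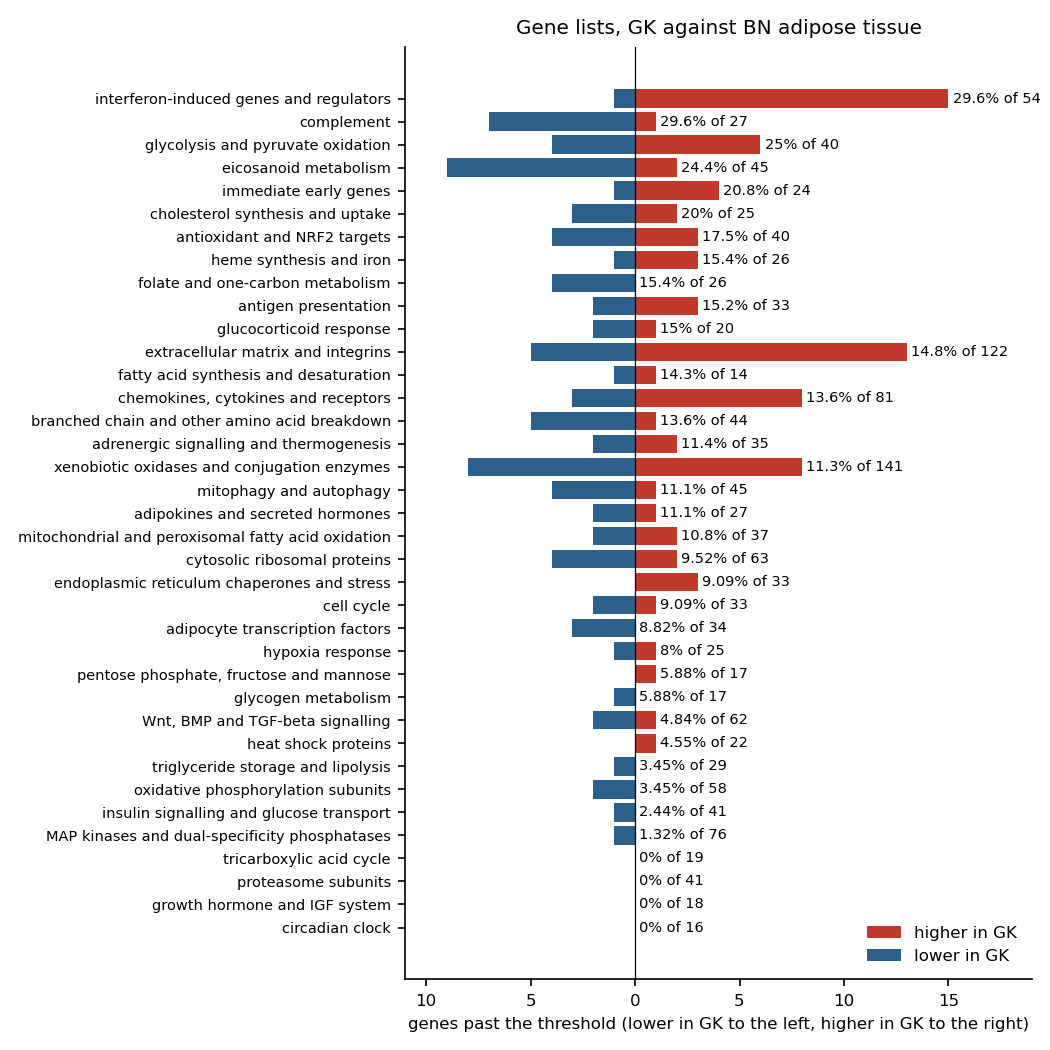
Number of genes past the threshold (x axis) in each functional gene list, with those higher in GK rats to the right and those lower to the left of 0, and beside each bar the share called of the genes measured. Over all 9 arrays the interferon list has the most increases (15) and the eicosanoid list the most decreases (9), against a share of 5.99% over all genes.

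Genes that the study's text names were lower or did not pass the test. Of 8 measured, 5 fell. The study named these 5 as lower in these same samples, so they are no independent evidence of direction. Umps, which completes the synthesis of uridine monophosphate, was at 6.03, 5.94, 6.35 and 5.98 in GK rats, against 8.69, 8.50, 8.65, 8.49 and 8.63 in BN rats (log2 difference -2.52, SE 0.13, adjusted p = 3.73e-08). The lipid phosphatase gene Plpp2 was at 6.64, 6.74, 6.84 and 6.72 in GK rats, against 7.90, 7.93, 7.69, 7.73 and 8.04 in BN rats (log2 difference -1.12, SE 0.12, adjusted p = 7.38e-05), and the transporter-like gene Slc35c2 was at 7.85, 7.83, 7.45 and 7.73 in GK rats, against 9.06, 8.80, 8.77, 8.84 and 8.52 in BN rats (log2 difference -1.08, SE 0.14, adjusted p = 0.000351). Ptges2 and Sult1a1 are given above. Erbb2, Erbb3 and Lin28a, which the study names from earlier human work, were not called and were detected on no array.

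Some calls of the genes above depended on the normalization. With neqc those of C4b, Cd3e, Egr1, Gys2, Il2ra, Nnat, RT1-Db1, Retn, Rps18, Rxrg, Serping1, Sesn1, Slc16a1 and Slc22a3 were lost, with quantile normalization those of C4b, Cd3e, Clu, Egr1, Gys2, Ly6c, Nnat, Qdpr, RT1-Db1, Retn, Rps18, Rxrg, Serping1, Sesn1, Slc16a1, Slc22a3 and Tcf4, and with vsn fitted to all 17 arrays those of C4b, Cd3e, Clu, Egr1, Gys2, Ifi27, Irf9, Klf15, Nnat, RT1-Db1, RT1-M3-1, Rxrg, Serping1, Sesn1, Slc16a1, Slc22a3 and Tcf4. Where a second adjusted p is given above, it comes from a fit with slide as a fixed block, which leaves few degrees of freedom.

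Liver RNA of 8 of these 9 rats was measured on other arrays, and for the 36 genes named above as the largest changes or as detected in 1 strain, the liver values can be set beside those of adipose tissue. They come from GK liver replicates 1 and 3, which are the rats of GK2 and GK4, and from the livers of the 5 BN rats, and are given with no test. GK liver replicate 2, of the rat of GK3, was left out by the plan, which names kidney genes on it. Its median correlation with the other liver arrays was 0.861, against 0.931 to 0.965 for the others. In 31 of the 36 genes every liver array of at least 1 strain was detected. The measured difference was over 1 in size in 16 of these 31 and under 0.5 in 9. Echdc2, Ifit1, Ly6c and Serhl2 were detected on both GK and no BN liver arrays. They were at least 49.3-fold, 17.5-fold, 5.80-fold and 2.01-fold higher in GK liver. Plekhf2 was detected on no GK and every BN liver array and was at least 7.29-fold lower. Ifi44, detected in both strains, was higher in GK liver by 3.24, and Washc3, Ephx2, Rpl30 and Cyp2b15 were lower, at -4.11, -3.31, -3.15 and -2.88. By contrast, the difference of Cyp2e1 was -4.28 in adipose tissue and -0.07 in liver, that of C4bpa -2.60 in adipose tissue and -0.21 in liver, that of Adhfe1 -3.17 in adipose tissue and -0.31 in liver, and that of Kifbp -2.89 in adipose tissue and -0.14 in liver. Bnip3 differed by -5.83 in adipose tissue and -0.98 in liver, and Hmgn1 was at least 38.7-fold lower in adipose tissue and differed by -0.88 in liver. Cyp2e1 was bright in liver, at means of 15.52 in GK and 15.59 in BN rats, and C4bpa was at 14.09 and 14.30. Whether the arrays resolve differences at such levels was not tested. Whether the strain difference itself differed between the tissues was not tested.

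**Figure D5:**
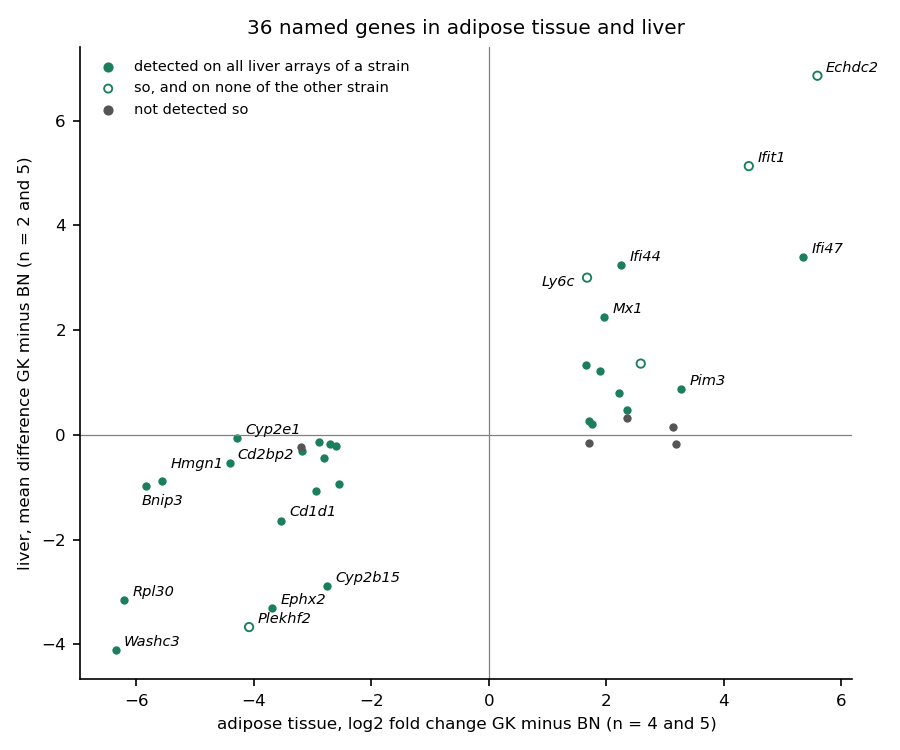
For the 36 named genes, the x axis gives the log2 fold change of GK over BN in adipose tissue (n = 4 and 5) and the y axis the mean difference in liver (n = 2 and 5), with green points for genes detected on every liver array of at least 1 strain, open where no array of the other strain was detected and the measured difference is plotted, not a bound. Echdc2 and Ifit1 lie at the upper right, Washc3 at the lower left, and Bnip3 and Cyp2e1 near the horizontal line.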

How the data were processed

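Total RNA of adipose tissue from 4 GK and 5 BN rats was measured on Illumina RatRef-12 arrays, with 1 array for each rat. The deposited intensity values are bead means on the linear scale that the authors obtained with BeadStudio, without background subtraction or normalization. The deposited detection score, a fraction between 0 and 1 per the file headers, ranks a probe against the negative controls. The deposited log2 values were made by the authors with vsn in each tissue and served as an alternative. Bead counts per probe (deposited, median about 42) were used as a description, and the number of arrays limits the precision. The mean intensity of the negative control probes of each array, from the deposited control table, was subtracted.

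A vsn model written in Python 3.11.15 (numpy 2.4.6, scipy 1.17.1, pandas 2.3.3) was fitted to the adipose arrays (7 iterations, 5 slices, trimming quantile 0.9) and tested on simulated data. Its values and the deposited log2 values lay 0.0156 apart at the median and 0.0874 at the most. GK was compared to BN with limma 3.58.1 in R 4.3.3 (lmFit, eBayes, two-sided, statmod 1.5.0 for random blocks), with Benjamini-Hochberg adjustment over 22226 probes and a threshold of 0.05. Errors of fold changes are standard errors. The alternatives were other normalizations and filters, trended variance, array weights, slide and replicate number as blocks, and each array left out in turn with the normalization refitted.

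A symbol was given for 13650 probes (13278 symbols), for 8576 none and for none several, and the brightest probe stands for a gene. Tm7sf2 and Pi16 have a second probe that did not pass the test, with a change in the same direction. Named genes are the 12 with the largest change in each direction that were detected on 9 arrays, did not overlap between strains and were also called without GK1 and without GK2, the 6 in each direction with the highest lower bound, up to 4 called genes of each of 55 gene lists (or 2 with the smallest p), the genes of the study's text, and up to 4 markers of a tissue seen on 1 array. The members and lists were chosen with earlier results of these data known. Genes outside this rule (Irf7, Irf9, Ifi27, Gbp2, Irgm, Ifitm1, Isg15, Nat2, Cyp1b1, Timp1, Cd55, C2, C8g, Pla2g7, Pla2g12a, Ptgr1, Akr1c3, Ptges and those said so in the text) were chosen after their values were seen. Lists defined by the start of a symbol left out pseudogenes and genes of other families with the same start. Lists are described by counts and medians. Promoter sequences are those of RefSeq for GRCr8.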

Additional observations from a re-analysis of the deposited data

Results flagged for a closer look

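In 12 of 290 groups of arrays, 1 array lay farther from its nearest neighbour, relative to the range of its group, than Dixon's 95% criterion allows, where chance gives about 1 in 20 groups. On GK1, the log2 of the summed level was 13.8 for hepatocyte genes and 11.2 for kidney tubule genes, each the highest of the 4 GK arrays, and Ambp was at 9.55, also the highest. Hpx was highest on BN1 of the 5 BN arrays, at 6.54. BN1 was likewise the highest BN array for Rxrg (12.40) and Vwf (12.74) and the lowest for Lgals3 (12.54). BN5 was the highest BN array for Blvra (10.61) and Cela1 (6.83), BN4 the lowest for Cs (8.28) and BN2 the lowest for Gbp2 (8.16). Among GK arrays, GK3 was the lowest for Eno2 (7.75). The calls of Vwf, Lgals3, Gbp2, Cela1, Blvra and Eno2 held when each array was left out in turn, and that of Rxrg did not.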

How the results depend on the processing

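The number of called probes, 1075 (477 higher and 598 lower in GK), stayed within 1.5 times under quantile normalization, neqc, the deposited values, the filter on detected probes, trended and robust variance, array weights and slide as a random block (966 to 1330). Fitting vsn to all 17 arrays gave 588 (229 higher, 359 lower), slide as a fixed block, with 2 residual degrees of freedom, 588 (225 and 363), an adjusted p under 0.01 gave 538 (207 and 331), and leaving out both GK1 and GK2 gave 467 (154 and 313). Leaving out 1 array gave 697 to 1071 calls, 275 to 490 higher and 418 to 581 lower. The replicate number of the labels as a block (replicate block) gave 854 calls (390 and 464). Same-numbered GK and BN arrays did not deviate together (correlations of -0.01, -0.23, -0.15 and -0.05), so the numbers do not pair the rats. No named gene that was called changed sign under any of these settings. Of 173 named genes, 122 kept their side of the threshold with vsn on all 17 arrays, 123 with slide as a fixed block, 129 with neqc, 130 with quantile normalization, 142 without GK1 and 142 without GK2. The causes of these differences were not tested. Of all probes, 12993 were detected on no array, and small or dim changes can be missed.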

Other observations

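Mast cell genes moved in both directions. Mcpt10, a mast cell protease gene, was at 5.79, 5.48, 5.98 and 4.99 in GK rats, against 6.79, 6.31, 6.87, 6.35 and 6.23 in BN rats (log2 fold change -0.95, adjusted p = 0.0164, or 0.11 with slide as a fixed block). The carboxypeptidase gene Cpa3, by contrast, was at 9.32, 9.67, 9.56 and 9.73 in GK rats, against 8.81, 8.81, 9.09, 8.72 and 8.06 in BN rats (0.87, adjusted p = 0.0155, or 0.0839 with slide as a fixed block), a call that was lost without GK2 or GK4 (adjusted p = 0.0504 to 0.0547). Of 23 genes of neutrophils and mast cells 2 rose and 2 fell (0 to 2 higher and 1 to 2 lower when each array was left out in turn, the fewest higher without GK2 or GK4).

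The pancreatic enzyme gene Cela1 was at 7.89, 8.46, 6.75 and 7.62 in GK rats, against 5.83, 5.73, 5.67, 5.76 and 6.83 in BN rats (log2 fold change 1.72, adjusted p = 0.00439). Of 24 genes of pancreatic acinar cells and islets, Cela1 and Cpa1 rose, and the call of Cpa1 was lost without GK2 (adjusted p = 0.0545) and with slide as a fixed block (adjusted p = 0.0708).

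Blvra, which reduces biliverdin to bilirubin, was at 10.89, 10.77, 11.08 and 11.10 in GK rats, against 10.24, 10.23, 10.25, 10.28 and 10.61 in BN rats (0.64, adjusted p = 0.0128). Gmppb, which makes GDP-mannose for glycosylation, rose by 0.74 (adjusted p = 0.00596, or 0.0741 with slide as a fixed block). Hpd, an enzyme of tyrosine breakdown and a hepatocyte marker, was at 6.80, 6.17, 5.21 and 6.06 in GK rats, against 8.43, 8.18, 7.83, 7.53 and 7.27 in BN rats (log2 fold change -1.79, adjusted p = 0.00215), and so was lower in GK also on GK1, where other hepatocyte genes were high.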
